A study of Mus musculus with 3 samples.

Results

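The cytoplasmic ribosome is built from ribosomal RNA and a set of small proteins, most of them encoded by single genes scattered over the genome. Those named Rps sit in the small subunit, which decodes the mRNA, and those named Rpl in the large subunit, which joins the amino acids. Rplp0, Rplp1 and Rplp2 form the stalk that recruits elongation factors. In the small intestinal crypt, stem cells and their dividing daughters at the base feed a flow of cells that leave the cycle as absorptive enterocytes or secretory cells such as goblet cells. Many mRNAs of ribosomal protein genes begin with a C and a run of pyrimidines, the 5' terminal oligopyrimidine (TOP) motif, through which their translation is tied to growth signals.

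The members were taken by symbol alone, as rows named Rps, Rpl or Rplp followed by a number and any of the letters a, x, y or l, without pseudogene rows or the Rps6k kinases. Of 28692 rows in the tables, 84 were members: 30 of the small subunit, 43 of the large subunit, the 3 stalk genes and 8 paralogs whose symbols end in l or l1. They lay on 19 chromosomes, with 14 on chromosome 7. The symbols leave out a few true ribosome parts, among them Rpsa, Fau and Gnb2l1 (RACK1). Of the 84, 81 were measured in every cell population, and 3 paralogs were not: over all barcodes Rpl39l had 10, 10 and 2 UMIs, Rpl3l 3, 4 and 6, and Rpl10l 0, 1 and 1.

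The data were single-cell RNA sequencing (10x Genomics 3' version 3) of small intestinal crypt cells from adult C57BL/6 mice aged 2 to 3 months, with 1 library per genotype. All mice carried Olfm4-IRES-eGFPCreERT2, an inducible Cre recombinase expressed from the locus of the crypt base stem cell gene Olfm4, so only cells that descend from Olfm4-expressing cells can have lost a floxed allele. The control, Het, was CDC42+/flox. The KO was CDC42flox/flox, and the Rescue was CDC42flox/flox with Yapflox/flox and Tazflox/+. CDC42 is a small GTPase of cell polarity, and YAP and TAZ are co-activators of the Hippo pathway. With 1 library per group no difference was tested, and values are given in the order Het, KO, Rescue. Intervals hold at 95% by exact methods and reflect counting error alone.

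Kept barcodes had at least 500 genes, at least 1000 unique molecular identifiers (UMIs) and at most 20% mitochondrial UMIs, which left 1595, 2036 and 1897 of 6152, 4786 and 3449. They held 25343987, 66017266 and 50077851 UMIs. Cdc42 was not lower in the KO library, at 239, 332 and 340 CPM in dividing cells, where CPM gives UMIs per 1000000 UMIs of the pooled cells. The sources used here do not say which exons are deleted, and a 3' tag outside them checks nothing, so Het, KO and Rescue name the libraries labelled so. The libraries also differed in sex-linked genes: over kept cells Xist stood at 0.434, 262 and 572 CPM and the Y-linked Ddx3y at 80.6, 0 and 5.63 CPM. The genotypes and these differences cannot be told apart. Het and KO shared 3 kept barcodes, Het and Rescue 0, and KO and Rescue 1.

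Cells were grouped by marker gates, not clusters. Epithelial gates needed at least 1 UMI of Epcam and 0 of Ptprc, and then at least 1 UMI of the stem cell receptor Lgr5, at least 2 of the proliferation gene Mki67, at least 0.5% of UMIs from the enterocyte fatty acid carrier Fabp1, or at least 0.1% and 5 UMIs from the goblet mucin Muc2. Immune cells had at least 1 UMI of Ptprc (CD45) and 0 of Epcam. In library order, the Lgr5-positive gate held 157, 17 and 70 cells, the Mki67 gate 78, 214 and 247, the Fabp1-high gate 138, 852 and 281, the Muc2-high gate 60, 201 and 38, and the Ptprc-positive gate 366, 125 and 472. A cell could fall in more than 1 gate, and 33, 10 and 46 cells were both Lgr5-positive and in the Mki67 gate. Marker lists describe the gates, but each list holds the gating gene itself, so its sum is in part set by the gate. In the Fabp1-high gate the enterocyte list summed to 78386, 96467 and 64758 CPM, against 3847, 12414 and 3631 CPM in the Mki67 gate. Fabp1 alone gave 21398, 15548 and 15647 CPM in the Fabp1-high gate. In the Lgr5-positive gate the stem cell list summed to 2028 CPM in Het and 1624 in KO, and Paneth cell markers to 119866 and 367 CPM.

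The start of the transcript is where a TOP motif would lie, and the windows below show it for the members whose behaviour is described further on. Each runs from 15 bases before to 15 bases after the annotated start, from RefSeq on build GRCm38.p6, with the run of a C and at least 4 pyrimidines in capitals where one begins within 5 bases of the start. Rps27 (chr3:90213634-90213663, minus strand) and Rplp2 (chr7:141447636-141447665, plus) had runs of 9 bases, Rpl12 (chr2:32961697-32961726, plus) a run of 6 and Rps27l (chr9:66946071-66946100, plus) a run of 5. Rpl36a (chrX:134585639-134585668, plus) and Rpl36al (chr12:69184053-69184082, minus) had none that begins within 5 bases of the start.
Rps27: atttccgctttcgCTCCTTTCCggcggtga
Rps27l: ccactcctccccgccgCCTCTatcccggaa
Rpl36a: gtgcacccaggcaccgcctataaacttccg
Rpl36al: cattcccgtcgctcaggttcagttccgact
Rpl12: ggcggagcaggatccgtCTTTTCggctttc
Rplp2: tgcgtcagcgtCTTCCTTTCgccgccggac
RefSeq entries were found for 63 members. On the sense strand 29 of the 63 (46.0%) had such a run within 5 bases of the start, against 5718 of 27025 genes (21.2%). The match describes letters at an annotated start and not a mapped one.

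Ribosomal protein genes took up a large share of all transcripts in crypt base, dividing and immune cells, and a small share in enterocytes. Summed over the members, they made up 16.9%, 24.6% and 19.9% of UMIs in Lgr5-positive cells and 17.6%, 18.6% and 20.3% in Mki67 cells. In Fabp1-high cells the share was 6.74%, 5.90% and 6.44%. Dividing cells thus held 2.62, 3.16 and 3.15 times the share of enterocytes, and over all alternative settings this factor ranged from 2.36 to 4.79 in Het, 2.62 to 4.14 in KO and 2.59 to 7.28 in Rescue. Muc2-high cells stood between the other epithelial gates in Het and Rescue at 11.6% and 13.5%, and near the enterocytes in KO at 6.65%. Ptprc-positive cells had 19.3%, 16.1% and 21.2%. Genes named Rps and those named Rpl or Rplp were lower in like measure: in Mki67 cells they held 7.88% and 9.75% in Het, and in Fabp1-high cells 2.89% and 3.85%.

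**Figure D1:**
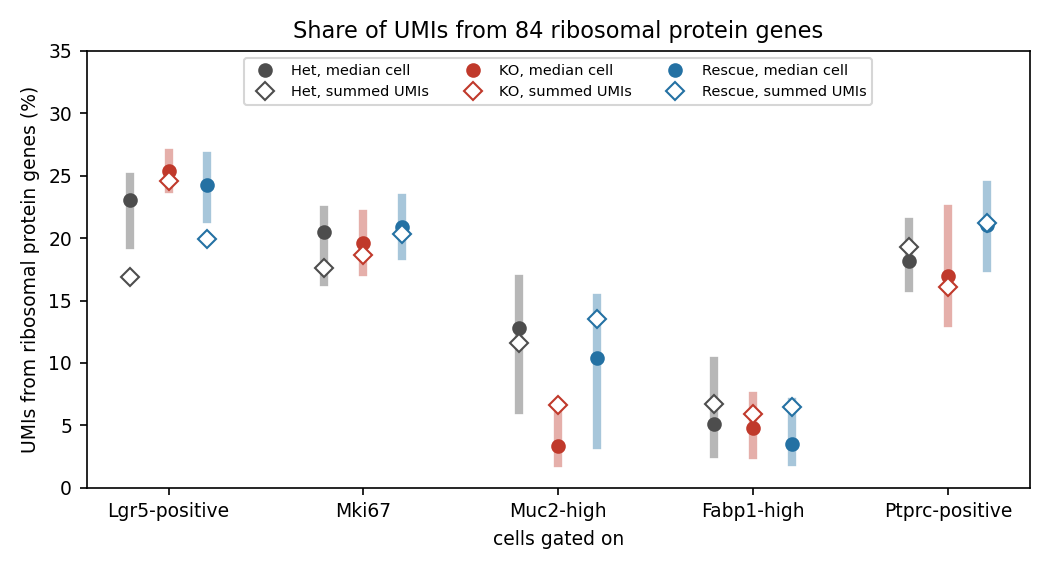
Share of UMIs from the ribosomal protein genes by gate and library, as percent on the vertical axis. Filled circles are the median cell, bars the range between its quartiles over cells, and open diamonds the share of summed UMIs. Fabp1-high cells lie at the bottom in all 3 libraries, and the KO Muc2-high cells lie well below those of Het and Rescue.

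Single cells spread widely around these sums. In Lgr5-positive cells the median cell held 23.1%, 25.3% and 24.2%, so the libraries lay closer by cell than by summed UMIs, and in Muc2-high cells it held 12.8%, 3.35% and 10.4%. In Mki67 cells the median cell held 20.5%, 19.6% and 20.9%, with quartiles from 16.5% to 22.2% in Het. In Fabp1-high cells the medians were 5.10%, 4.81% and 3.50%, and 68 of 138, 443 of 852 and 188 of 281 cells lay under 5%. Only 3, 2 and 1 Mki67 cells did. Along rising Fabp1, the cell median in Het epithelium went from 18.4% where Fabp1 was under 0.01% of UMIs to 4.04% where it was 2 to 4%, and in Rescue from 21.9% to 3.42%. The Het median was not falling throughout, with 20.6% from 0.01 to 0.1%. The KO did not follow one slope: its median was 7.97% under 0.01%, 15.5% from 0.01 to 0.1% and 3.79% from 0.5 to 1%. Above that the KO median rose again, to 5.88% from 2 to 4% and 6.58% at 4% and above (18 cells). Barcodes left out by the limits had low shares of 3.40%, 2.19% and 4.30%. Median mitochondrial shares were 14.9%, 9.99% and 13.1% in Fabp1-high cells and 10.9%, 7.86% and 11.0% in Mki67 cells, and their part in the difference was not tested.

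Nearly the whole set was lower in enterocytes, gene by gene. In every library 80 of the 81 measured members were at least 1.5-fold lower in Fabp1-high than in Mki67 cells, and they were the same 80. Of all genes measured, 42.8% were that much lower in Het, 49.2% in KO and 50.4% in Rescue. The median log2 ratio of the members, computed here and below on CPM plus 1, was -1.41, -1.70 and -1.68, against -0.36, -0.56 and -0.59 over all genes measured. Rpl12, which lies at the base of the stalk, had the lowest log2 ratio on average over the libraries: it stood at 2292, 2111 and 2400 CPM in Mki67 cells and at 560, 410 and 498 CPM in Fabp1-high cells, log2 ratios of -2.03, -2.36 and -2.27. Rpl3, an early-assembling large subunit protein near the catalytic centre, followed with -1.74, -2.44 and -2.10 and was the lower of both in KO. Both genes were lower in Fabp1-high cells of every library than in Mki67 cells of any.

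The 1 member outside this pattern was Rps27l, the paralog of Rps27 and a known p53 target gene. It stood at 568, 863 and 832 CPM in Mki67 cells and still at 538, 637 and 649 CPM in Fabp1-high cells, log2 ratios of -0.08, -0.44 and -0.36. Rpl36al, the intronless paralog of Rpl36a, was the next least lowered on average, with -0.68, -1.20 and -1.13. Rps29, Rpl38 and Rpl41, which encode very short proteins, came near it. Of the ribosome parts outside the symbol rule, Fau, which encodes the small subunit protein eS30 fused to a ubiquitin-like domain, was also not lower: it had 1933, 2176 and 2396 CPM in Mki67 and 2418, 2195 and 2516 CPM in Fabp1-high cells. Rpsa, by contrast, had 3563, 4430 and 3924 CPM in Mki67 and 1052, 1217 and 983 CPM in Fabp1-high cells.

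**Figure D2:**
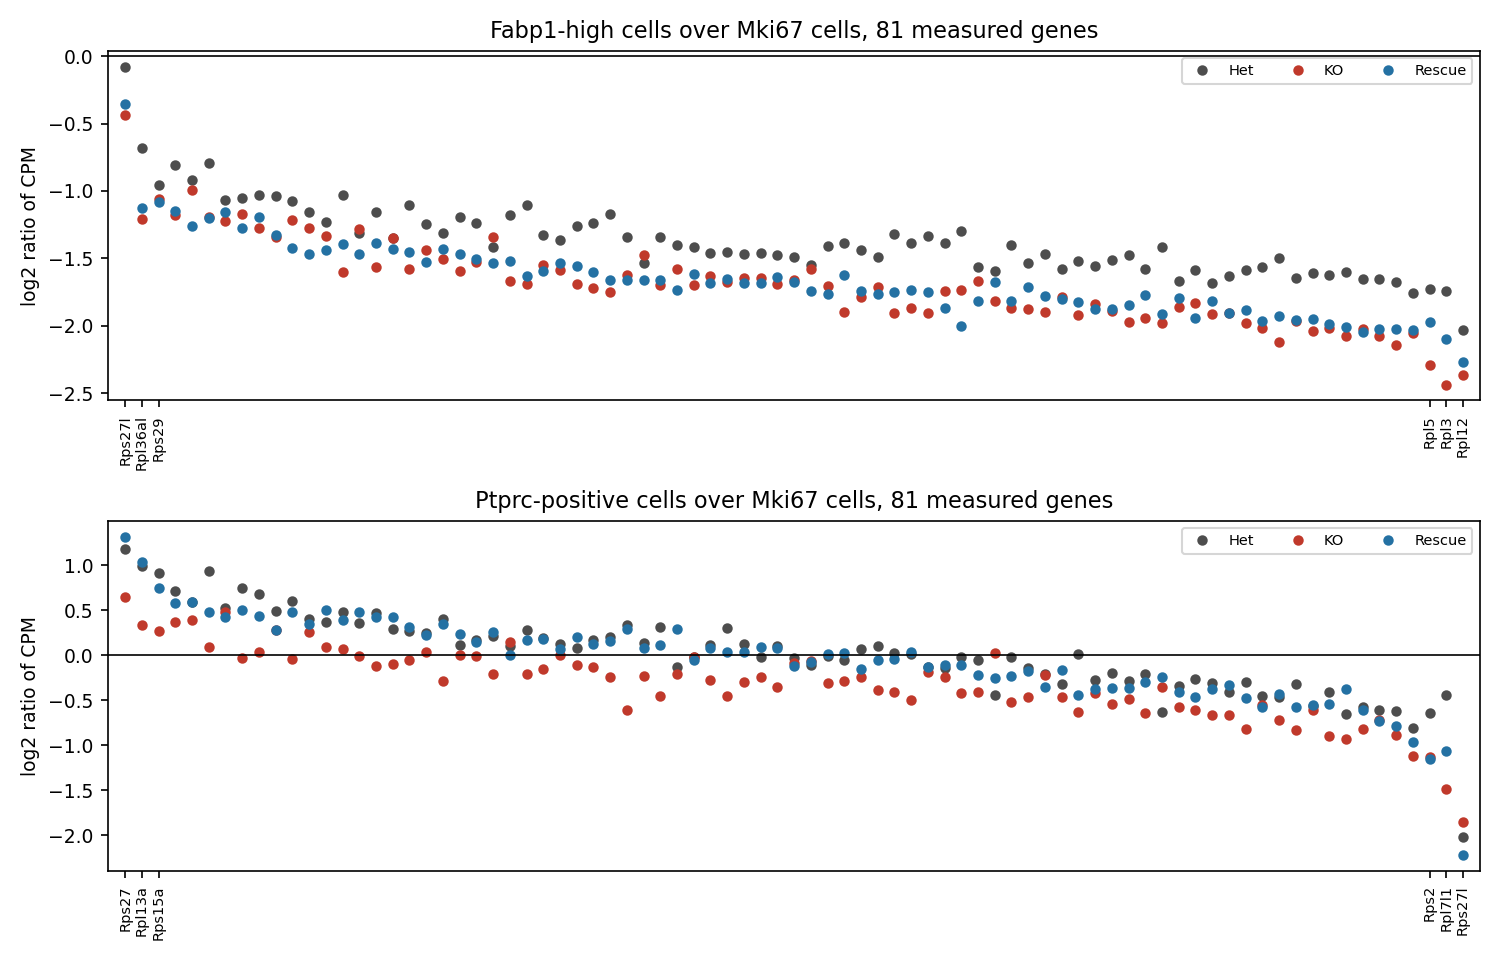
Log2 ratio of CPM of each of the 81 measured genes in Fabp1-high over Mki67 cells (upper panel) and Ptprc-positive over Mki67 cells (lower panel), 1 point per library. The 3 genes at each end are labelled. In the upper panel all genes except Rps27l lie well below 0 in every library, and in the lower panel Rps27 lies highest and Rps27l lowest.

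The machinery that builds ribosomes was lower still in enterocytes. A list of 55 ribosome biogenesis genes had median log2 ratios of -2.41, -3.13 and -3.17, with 54, 55 and 55 of 55 at least 1.5-fold lower. Npm1, a nucleolar chaperone, went from 1259, 1711 and 1323 CPM in Mki67 cells to 136, 107 and 111 CPM in Fabp1-high cells. Initiation and elongation factors had medians of -0.95, -1.28 and -1.24, and mitochondrial ribosomal proteins of -0.58, -1.32 and -1.08. The members' medians lay between those of biogenesis and of these 2 lists in all 3 libraries.

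Within dividing cells the members covered a wide range of UMI levels, which in 3' counting do not scale with transcript length. Rps2 (3778, 5099 and 5292 CPM) and Rpl13 (4134, 4563 and 4521) were among the highest on average. The stalk gene Rplp1 was nearly level across libraries at 4030, 4027 and 4022 CPM, and Rplp2 stood at 1833, 1668 and 2153. The lowest of the 81 were Rpl6l (29.5, 30.7 and 17.8 CPM), Rpl7l1 (86.6, 132 and 118), a paralog of Rpl7, and Rpl27 (343, 355 and 479).

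In immune cells the summed share was near that of dividing epithelium in Het and Rescue and below it in KO, and the genes differed in their levels. Ptprc-positive cells were far shallower, with median depths of 4956, 4885 and 4804 UMIs against 44236, 51096 and 64297 in Mki67 cells, so shares and not amounts are compared. The median log2 ratio of Ptprc-positive over Mki67 cells was 0.01, -0.28 and 0.01. In Het 9 members were at least 1.5-fold higher and 7 lower, where 30.8% and 37.3% of all genes were. In KO 1 member was higher and 19 were lower (27.8% and 38.6% of all genes), and in Rescue 4 and 7 were (29.0% and 37.7%). All of these shares of members lie below those of all genes. Rps27 was the 1 member higher in all 3 libraries: it had 1552, 1163 and 1554 CPM in Mki67 cells and 3516, 1814 and 3866 CPM in Ptprc-positive cells. Rpl13a, Rps15a and Rps24 were the other 3 in Rescue. Members lower in all 3 libraries included Rpl28, Rpl7a, Rps2 and Rps27l. Rps27l was lowest of all, at 139, 238 and 179 CPM, a log2 ratio of -2.02, -1.86 and -2.22.

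The 2 proteins of the Rps27 pair are close relatives that occupy the same place in the small subunit. No protein was measured, and the share of Rps27l among the pair's UMIs describes only which gene the mRNA comes from. In Het it was 3.81% in Ptprc-positive, 22.1% in Lgr5-positive, 26.8% in Mki67, 25.1% in Muc2-high and 43.6% in Fabp1-high cells. In KO it was 11.6%, 30.2%, 42.6%, 40.7% and 61.9% in the same gates, and in Rescue 4.41%, 29.3%, 34.9%, 35.4% and 52.1%. The order Ptprc-positive, Lgr5-positive, Mki67, Fabp1-high was the same in the 3 libraries, though the Lgr5-positive and Mki67 gates share cells. The KO was highest in every gate, though level with Rescue in Lgr5-positive cells within counting error. Over all settings the shares of Het and KO did not overlap in Mki67 cells (25.3% to 28.4% against 38.8% to 43.0%), in Fabp1-high cells (42.6% to 49.5% against 60.2% to 63.1%) or in Muc2-high cells (22.0% to 25.7% against 31.8% to 41.6%). Rescue ranged from 34.0% to 36.2% in Mki67 cells and from 51.4% to 66.8% in Fabp1-high cells, which takes in the KO values there. In Lgr5-positive cells, 17 in KO, the ranges overlapped (19.6% to 25.9% and 25.1% to 36.0%), and so they did in Ptprc-positive cells (3.70% to 8.52% and 7.81% to 23.8%).

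The difference between libraries was also present at like Fabp1 levels. In epithelial cells with Fabp1 under 0.01% of UMIs the Rps27l share was 23.3% (22.6-24.0) in Het, 36.7% (35.2-38.2) in KO and 32.4% (31.9-33.0) in Rescue. At 1 to 2% Fabp1 it was 39.7% (37.8-41.7), 62.6% (61.9-63.4) and 52.0% (50.4-53.5). At 2% and above it was 51.6%, 62.4% and 64.1%, so there Het alone stood apart. Both sides of the pair moved: in Mki67 cells the log2 ratio of KO over Het was 0.60 for Rps27l and -0.42 for Rps27. The last 300 bases of Rps27 share 62.7% of their 31-base words with another row, Rps27rt, which held 3.89%, 2.96% and 3.28% of the UMIs of the 2 rows in Mki67 cells, while those of Rps27l share none with another row of the table.

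Rpl36al also took a larger part of its pair in enterocytes than in dividing cells. Its share of the pair with Rpl36a was 31.8%, 31.5% and 35.3% in Lgr5-positive cells, 38.7%, 47.3% and 42.8% in Mki67 cells and 53.6%, 58.3% and 55.7% in Fabp1-high cells. Muc2-high cells were like enterocytes at 53.2%, 57.8% and 52.6%, whereas for Rps27l they were near dividing cells. In Ptprc-positive cells the share was 33.4%, 38.4% and 37.9%, above the Lgr5-positive cells in each library, whereas Rps27l was lowest there. The KO was highest in the Mki67, Fabp1-high, Muc2-high and Ptprc-positive gates and not in Lgr5-positive cells. In Ptprc-positive cells the KO and Rescue intervals overlapped. Over all settings the Het and KO ranges stood apart only in Mki67 cells (36.9% to 41.3% against 45.0% to 47.4%). In Fabp1-high cells they overlapped (53.6% to 61.6% and 57.2% to 60.7%). At 1 to 2% Fabp1 the KO was highest (51.6%, 59.6% and 54.9%), and at 2% and above it was not (59.7%, 56.9% and 66.9%). Rpl22l1, the paralog of Rpl22, held 36.4% to 50.6% of the UMIs of its pair over all gates and libraries, and Rpl7l1 2.72% to 5.87%.

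**Figure D3:**
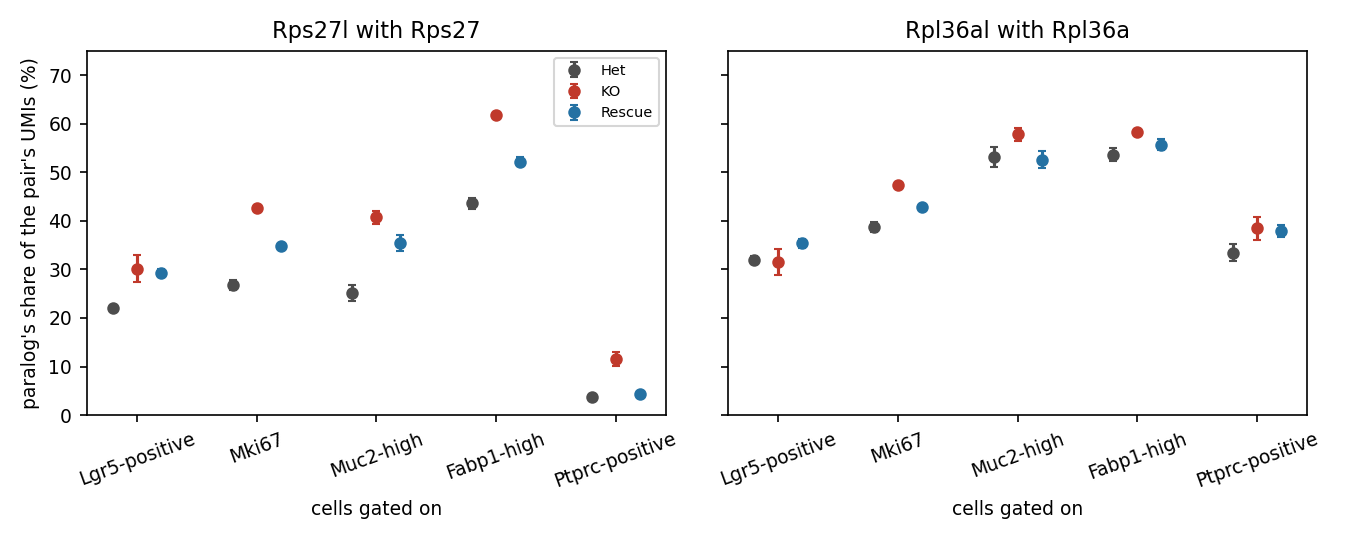
Share of the paralog among the UMIs of its pair, in percent, by gate and library, with exact 95% intervals. Rps27l (left) runs from 3.81% in Het Ptprc-positive cells to 61.9% in KO Fabp1-high cells, and Rpl36al (right) from 31.5% in KO Lgr5-positive cells to 58.3% in KO Fabp1-high cells.

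Between KO and Het the members as a set differed in size and direction from gate to gate. The ratio of summed shares was 1.45 in Lgr5-positive, 1.06 in Mki67, 0.875 in Fabp1-high, 0.572 in Muc2-high and 0.834 in Ptprc-positive cells. In dividing cells the set was close to level: the median log2 ratio was 0.09, that of all genes 0.08, 2 members were at least 1.5-fold higher and 2 lower, where 19.5% and 14.0% of all genes were. Paneth cell markers summed to 62827, 132 and 3038 CPM in this gate, and the median was -0.08 without cells in which the Paneth gene Lyz1 was at least 0.5% of UMIs, an exclusion chosen after seeing the data. In Lgr5-positive cells the median was 0.55 against 0.31 for all genes, with 33 members higher and 1, Rpl29, lower (32.9% and 16.1% of all genes). That gate held 17 KO cells, and Paneth markers summed to 119866, 367 and 73644 CPM in it. The same exclusion brought its median to 0.13.

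The ratio farthest from 1 was that of the Muc2-high cells. All 81 measured members were lower than in Het, 66 of them by at least 1.5-fold and 0 higher by that much, where 25.8% of all genes were higher and 25.8% lower. The median log2 ratio was -0.84, against -0.05 over all genes, and in Rescue over Het it was 0.23. Rps26 stood at 1020, 398 and 1008 CPM: the KO library was low and the other 2 were close. The small subunit (-0.84) and the large subunit (-0.85) were lower alike, and the members least lowered by rule were Rps27l (-0.22), Rpl19 (-0.25), Rpl7 (-0.29), Rps20 (-0.30) and Rpl24 (-0.46). The lowest were Rpl10 (-1.28), Rps15 (-1.29), Rps26 (-1.35), Rpl23a (-1.51) and Rpl29 (-3.09). Biogenesis genes were lower too, with a median of -1.20 and 39 of 51 at least 1.5-fold lower, while mitochondrial ribosomal proteins had a median of -0.01.

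The cells in this gate were not alike between libraries. Goblet markers summed to 120541, 225460 and 152621 CPM, enterocyte markers to 1531, 22028 and 7179 CPM and Paneth markers to 101831, 9744 and 6849 CPM. From the gate's limit of 0.1% upward, the cell median of the ribosomal protein share was lower at higher Muc2 in all 3 libraries. The KO lay lower at each level. With Muc2 at 0.1 to 0.5% of UMIs the cell median was 16.2% over 31 Het cells, 9.54% over 42 KO cells and 16.0% over 12 Rescue cells. At 1% and above it was 6.31% over 12, 2.45% over 122 and 3.99% over 19. Below the limit, from 0.01 to 0.1%, it was 6.29%, 5.95% and 6.46%. With the 50 most abundant other genes taken out of the total the median log2 ratio was -0.90, and without cells of high Lyz1 it was -1.14. It was below 0 in all 18 alternatives, from -1.33 to -0.68.

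**Figure D4:**
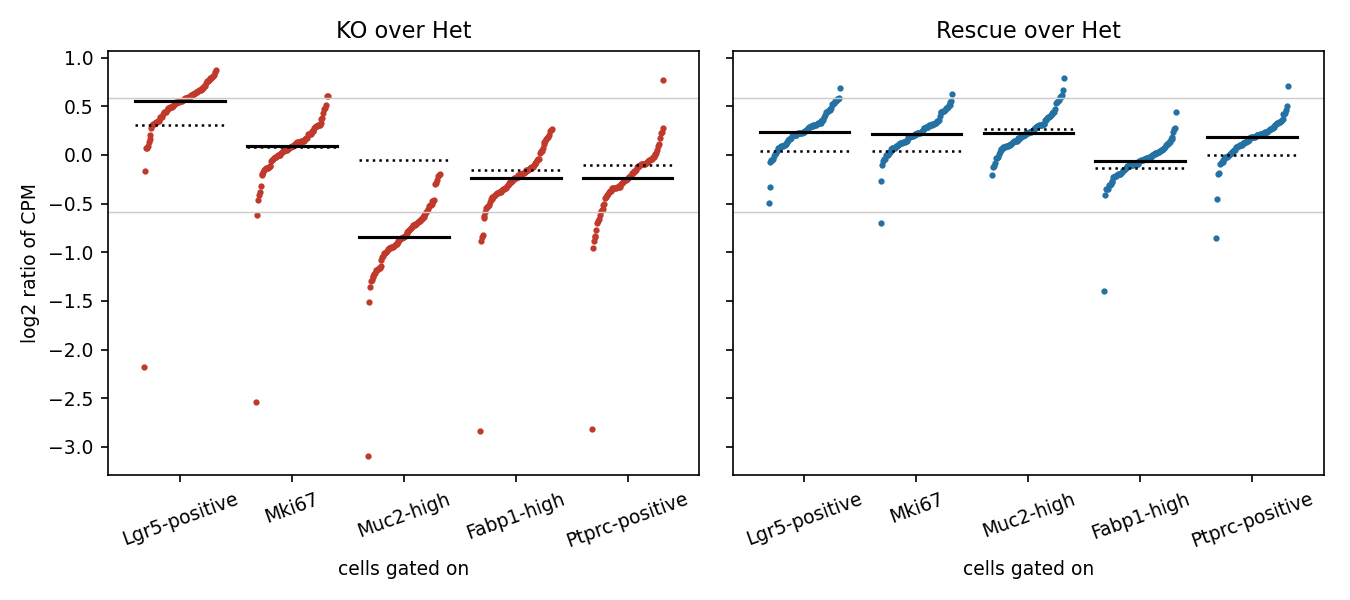
Log2 ratio of CPM of the 81 measured genes in KO over Het and Rescue over Het, by gate, with 1 point per gene, the median of the members as a solid line, that of all genes measured as a dotted line, and grey lines at 1.5-fold. In KO over Het the Muc2-high genes all lie below 0, with a median of -0.84, and in Rescue over Het the medians lie between -0.06 and 0.24.

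In enterocytes and immune cells the KO was a little lower. In Fabp1-high cells the median log2 ratio was -0.24, against -0.15 for all genes, with 0 members at least 1.5-fold higher and 7 lower (16.4% and 27.1% of all genes). The 7 were Rps15a, Rpl35a, Rps3a1, Rps27, Rps26, Rpl23a and Rpl29. At most 10% mitochondrial UMIs, which left 19 Het cells, turned this median to 0.79. In Ptprc-positive cells the median was -0.24 against -0.10 for all genes, with 1 member higher, Rps27l, and 10 lower (23.2% and 28.2% of all genes). This gate differed between libraries: its list of 15 markers, 0 of them absent, summed to 45093, 35605 and 43640 CPM, the T cell gene Cd3e stood at 1266, 234 and 754 CPM and Mki67 at 14.8, 83.4 and 28.4 CPM, and their part in the result was not tested. Rps27 was again among the low ones, at 3516, 1814 and 3866 CPM, as were Rplp1 (-0.84), Rpl27 (-0.89) and Rpl23a (-0.84). Beside Rpl29, the members at least 1.5-fold lower in KO in 3 of the 5 gates were Rpl23a, Rps15a, Rps26, Rps27 and Rps3a1, and only Rps27l was higher in 3. In single gates 14.0% to 28.2% of all genes were that much lower and 16.4% to 32.9% higher. How many of all genes were so in 3 gates was not counted, so the recurrence cannot be called particular to these members.

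In dividing cells the 5 highest members in KO over Het were Rps27l (0.60), Rpl7l1 (0.60), Rpl11 (0.51), Rpl31 (0.49) and Rpl36al (0.48). Rps27l, Rpl7l1 and Rpl36al are paralogs, but the other measured paralogs, Rpl22l1 (-0.02) and Rpl6l (0.06), were level within counting error. Rpl11, which also binds the p53 regulator MDM2, is a large subunit protein. The lowest were Rps3a1 (-0.38), Rps27 (-0.42), Rps28 (-0.46), Rps26 (-0.62) and Rpl29 (-2.54). Rps26, which lies at the mRNA exit site of the small subunit, had 2020, 1317 and 1679 CPM, with a KO over Het ratio of 0.652 (0.634-0.670). It was named for its low KO value, and the Rescue library lay between the other 2.

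In Rescue over Het the summed-share ratios were 1.18 in Lgr5-positive, 1.15 in Mki67, 0.955 in Fabp1-high, 1.16 in Muc2-high and 1.10 in Ptprc-positive cells, and the member medians 0.24, 0.22, -0.06, 0.23 and 0.18. Each of these medians changed sign under at least 1 alternative setting. In Lgr5-positive cells 1 member, Rplp0, was at least 1.5-fold higher and 0 lower (10.7% and 11.8% of all genes). In Mki67 cells Rplp0 was higher and Rpl6l lower (9.43% and 9.93%), and in Fabp1-high cells 0 were higher and Rpl6l lower (4.40% and 15.2%). In Muc2-high cells 6 were higher and 0 lower (30.4% and 9.72%), and in Ptprc-positive cells Rplp0 was higher and Rpl6l lower (18.4% and 18.1%). Rescue over KO had medians of -0.28, 0.14, 0.18, 1.10 and 0.39 in the same order of gates. The comparisons share libraries, so their values are given side by side only.

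The 2 members that stood farthest from the rest, Rpl29 in KO and Rplp0 in Rescue, were singled out after their values were seen, and both share sequence with a row elsewhere in the genome. Rpl29 (ENSMUSG00000048758, chr9:106429454-106431568, plus strand, GENCODE vM21) encodes a small basic protein of the large subunit. It stood at 665, 114 and 754 CPM in Mki67, 323, 44.3 and 300 CPM in Fabp1-high and 422, 59.1 and 580 CPM in Ptprc-positive cells, so the KO library was far below the other 2 in each. Of 6610 genes measured in all 5 gates, 3 were at least 4-fold lower in KO than in both other libraries in every gate: Rpl29 and the Y-linked Eif2s3y and Ddx3y. At the 1.5-fold rule 19 genes (0.287%) were lower in this way, 1 of them a member, and 59 were higher, with 0 members.

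The row Gm10709, also on chromosome 9, moved the other way. The last 300 bases of Rpl29 transcripts share 68.4% of their 31-base words with other rows, most of them with Gm10709, so a read there cannot always be told apart. Gm10709 had 416, 896 and 397 CPM in Mki67 and 233, 496 and 234 CPM in Ptprc-positive cells. The sum of both rows was 1080, 1009 and 1151 CPM in Mki67 cells, 500, 403 and 453 in Fabp1-high cells and 655, 556 and 814 in Ptprc-positive cells. Its log2 ratio of KO over Het was 0.31, -0.10, -0.31, -0.75 and -0.24 from Lgr5-positive to Ptprc-positive cells, beside member medians of 0.55, 0.09, -0.24, -0.84 and -0.24. Rpl29 held 61.2% to 64.6% of the pair in Het, 10.6% to 11.9% in KO and 65.5% to 71.3% in Rescue. Of its neighbours within 200 kb, 7 were compared, and their log2 ratios in Mki67 cells ran from -0.41 (Abhd14a) to 0.72 (Alas1). In Fabp1-high cells they ran from -2.09 (Abhd14a) to 0.34 (Alas1). In Ptprc-positive cells the range was -2.32 (Pcbp4) to 1.25 (Alas1). Given the words shared with Gm10709, the value of the Rpl29 row alone is uncertain.

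Rplp0 (ENSMUSG00000067274, chr5:115559467-115563727, plus strand) showed the same in the Rescue library. It had 2781, 3437 and 4276 CPM in Mki67 cells, and Gm8730 on chromosome 8 had 1404, 1493 and 28.6 CPM. The last 300 bases of Rplp0 share 40.6% of their 31-base words with other rows, most of them with Gm8730. Gm8730 held 33.6%, 30.3% and 0.665% of the pair. The sums were 4185, 4930 and 4304 CPM, and their log2 ratio of Rescue over Het was 0.04, against 0.62 for Rplp0 alone. With each member summed with its most similar row, an alternative added after seeing the data, 0 members were higher in Rescue in the Lgr5-positive, Mki67 or Ptprc-positive gates. Of the 84 members, 18 shared over 50% of the words of their last 300 bases with another row of the table and 51 with some other annotated gene, Rpl23a (81.1%) and Rps26 (73.3%) among the former. Small differences of such members may depend on how reads were assigned. Of the KO over Het gene ratios followed through the alternatives, summing with copies moved 4 and left 36 within counting error.

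**Figure D5:**
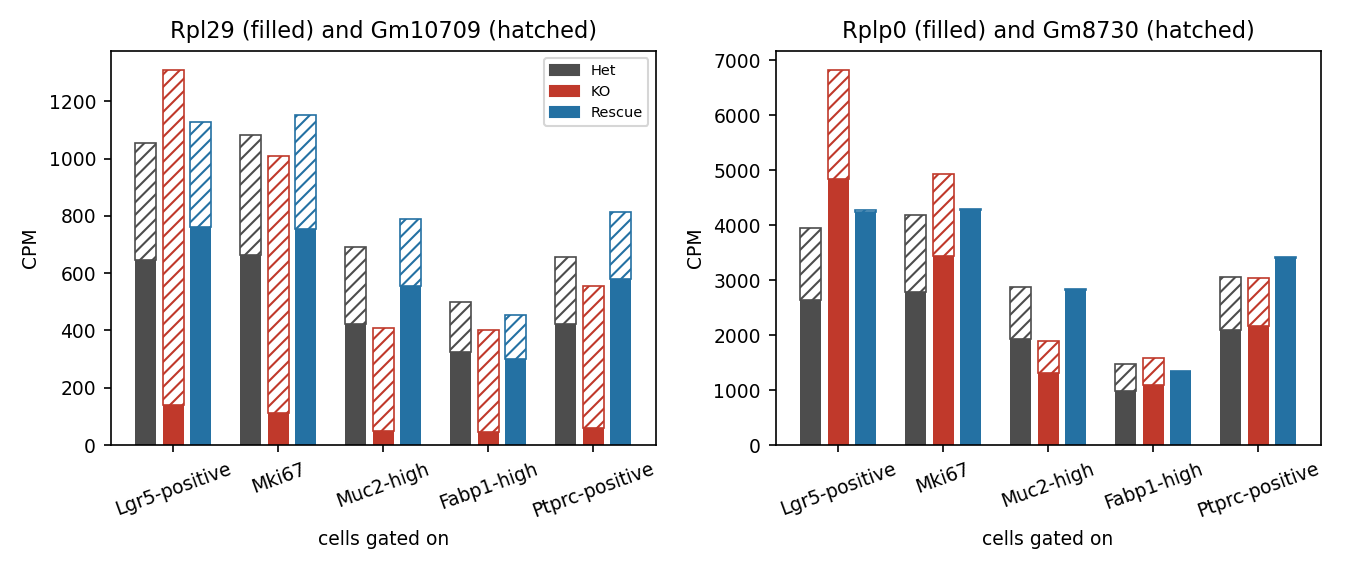
CPM of Rpl29 with Gm10709 (left) and of Rplp0 with Gm8730 (right), stacked, by gate and library. In KO most of the left bars is Gm10709 and in Rescue nearly all of the right bars is Rplp0, while the whole bars differ less than the filled parts.

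In dividing cells of KO over Het, where 19.5% of all genes were at least 1.5-fold higher and 14.0% lower, lists of other protein synthesis genes differed from each other. Of the measured members of each list, mitochondrial ribosomal proteins had 30 of 76 at least 1.5-fold higher and 0 lower, with a median log2 ratio of 0.47 (0.18 to 0.99 over all settings). Mrpl20 was the highest, at 148, 405 and 256 CPM. Initiation and elongation factors had 10 of 35 higher and 1, Eif4a2, lower, with a median of 0.46 (0.28 to 0.70). Eif6, which keeps free large subunits from joining small ones, stood at 216, 507 and 298 CPM, and the scaffold Eif4g1 at 150, 325 and 217 CPM. These 3 genes were named as among the highest of their lists in KO over Het, so KO above Het was set by the choice. Rescue lay between in each, and how many other genes did so was not counted.

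The biogenesis list had 8 of 55 higher, a share below that of all genes, with a median of 0.18, which was -0.00072 without cells of high Lyz1. It was led by Bysl (0.92) and Mrto4 (0.86). TOP mRNAs outside the symbol rule had a median of 0.14 (-0.030 to 0.39 over all settings), with Nap1l1 (0.85) and Eef1d (0.71) higher and Pabpc1 (-0.86), the poly(A)-binding protein, lower, of 19. Of 15 regulators, 2 were higher, Mxd1 (1.05) and Mlx (0.79), and 4 lower. Myc, a driver of ribosome gene transcription, had 38.3, 12.6 and 26.6 CPM (-1.53). Over all genes of at least 50 CPM in this gate the median was 0.27, against 0.09 for the ribosomal protein genes.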

How the data were processed

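UMI counts per gene and barcode were used as deposited, and per the file headers the matrices were written by Cell Ranger 3.0.2 (Het, KO) and 3.1.0 (Rescue), while the submitters' processing notes name version 1.3.0. Their genome build was not named there. UMIs were summed over the cells of a gate and library and divided by all UMIs (CPM), with exact Poisson or binomial intervals. A gene was measured in a comparison if either library had at least 20 UMIs. With 1 library per group a fold of 1.5 stood in for a call, and no test was made. The code was tested on simulated data.

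Doublets were kept, and removed by score (20, 33 and 29 cells) as an alternative. Named genes were the 5 highest and 5 lowest members per gate whose interval excluded 1 with at least 50 CPM in 1 of the libraries, the 3 highest and lowest in Mki67 cells, the paralog pairs, the stalk genes, and the 2 highest and lowest of each other list. Some genes that this rule takes in are not reported here. Members and lists were chosen with earlier results of these data known. GENCODE vM21 coordinates describe the annotation used here, not the counting. Sequence words of 31 bases came from GENCODE vM21 transcripts, promoters from RefSeq. Median depth was 5576, 28416.5 and 5992 UMIs per kept cell. Python 3.11.15, numpy 2.4.6, scipy 1.17.1, pandas 2.3.3, scikit-learn 1.9.0 and matplotlib 3.10.9 were used.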

Additional observations from a re-analysis of the deposited data

Results flagged for a closer look

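The summed share of the ribosomal protein genes went in opposite directions in different gates under the same comparison, and the difference between gates was not tested. KO over Het was above 1 in Lgr5-positive (1.45) and Mki67 cells (1.06) and below 1 in Fabp1-high (0.875), Muc2-high (0.572) and Ptprc-positive cells (0.834). Rescue over Het was above 1 in Lgr5-positive (1.18), Mki67 (1.15), Muc2-high (1.16) and Ptprc-positive cells (1.10) and below 1 in Fabp1-high cells (0.955).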

How the results depend on the processing

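All values here are median log2 ratios of the members unless a gene or list is named, gates are given by their marker, and r marks a value whose sign differs from the reported one. No paired analysis was possible because each group had 1 library. The causes of the changes were not tested. With at most 10% mitochondrial UMIs KO over Het was 1.10 (Lgr5), 0.35 (Mki67), 0.79 r (Fabp1), -0.68 (Muc2) and -0.32 (Ptprc), Rescue over Het 0.53 (Mki67), -0.42 (Fabp1) and 0.13 (Ptprc), and Rescue over KO -0.87 (Lgr5), 0.22 (Mki67), -1.20 r (Fabp1) and 0.94 (Muc2), and in Fabp1-high cells Rps3a1 (0.44 r), Rps26 (0.14 r) and Rpl23a (0.26 r) turned. With no mitochondrial limit KO over Het was 0.35 (Mki67) and -0.17 (Fabp1), Rescue over Het 0.30 (Lgr5) and 0.46 (Mki67), and Rescue over KO 0.11 (Fabp1). Without the 50 highest other genes KO over Het was 0.17 (Lgr5) and -0.083 r (Mki67), Rescue over Het 0.10 (Lgr5), 0.084 (Mki67), 0.0029 r (Fabp1) and 0.028 (Muc2), Rescue over KO -0.043 (Lgr5), 0.18 (Mki67), 0.23 (Fabp1) and 0.95 (Muc2), and the TOP list in KO over Het -0.030 r (Mki67). Without mitochondrial genes KO over Het was -0.32 (Fabp1) and Rescue over KO 0.19 (Mki67) and 0.25 (Fabp1). Centred on the median of other genes KO over Het was 0.25 (Lgr5), 0.0028 (Mki67), -0.088 (Fabp1) and -0.14 (Ptprc), Rescue over Het 0.078 r (Fabp1) and -0.033 r (Muc2), and Rescue over KO -0.041 (Lgr5), 0.18 (Mki67) and 0.84 (Muc2). With gate thresholds doubled KO over Het was 0.28 (Lgr5), 0.14 (Mki67), -0.064 (Fabp1) and -1.26 (Muc2), Rescue over Het 0.14 (Lgr5), -0.24 (Fabp1) and -0.46 r (Muc2), and Rescue over KO -0.12 (Lgr5), 0.082 (Mki67), -0.18 r (Fabp1) and 0.82 (Muc2). On the marker alone KO over Het was -0.19 (Fabp1) and -0.14 (Ptprc), and Rescue over KO 1.18 (Muc2) and 0.29 (Ptprc). With cells in 1 gate only KO over Het was 0.015 (Mki67), -0.33 (Fabp1) and -1.03 (Muc2), Rescue over Het -0.35 r (Lgr5), 0.068 (Mki67) and -0.0038 r (Muc2), and Rescue over KO -0.80 (Lgr5), 0.031 (Mki67) and 0.26 (Fabp1). As a mean over cells KO over Het was 0.32 (Lgr5), 0.038 (Mki67), -0.30 (Fabp1), -1.17 (Muc2) and -0.074 (Ptprc), Rescue over Het 0.16 (Lgr5), 0.15 (Mki67), -0.50 (Fabp1) and -0.21 r (Muc2), and Rescue over KO -0.13 (Lgr5), -0.19 r (Fabp1), 1.00 (Muc2) and 0.24 (Ptprc). Thinned to 2000 UMIs KO over Het was 0.33 (Lgr5), 0.049 (Mki67), -1.28 (Muc2) and -0.092 (Ptprc), Rescue over Het 0.15 (Lgr5), 0.13 (Mki67), -0.46 (Fabp1) and -0.26 r (Muc2), Rescue over KO -0.15 (Lgr5), 0.11 (Mki67), -0.17 r (Fabp1), 1.00 (Muc2) and 0.27 (Ptprc), the TOP list in KO over Het -0.025 r (Mki67) and Rpl7l1 -1.10 r (Fabp1). In cells of 10000 to 40000 UMIs KO over Het was 0.15 (Lgr5), -0.043 r (Mki67), 0.12 r (Fabp1), -1.33 (Muc2) and -0.59 (Ptprc), Rescue over Het -0.074 r (Mki67), -0.33 (Fabp1), -0.40 r (Muc2) and -0.042 r (Ptprc), and Rescue over KO 0.12 r (Lgr5), -0.028 r (Mki67), -0.42 r (Fabp1), 0.97 (Muc2) and 0.52 (Ptprc), and in KO over Het Rpl7l1 (-0.091 r, Fabp1), Rps19 (-0.11 r), Rps27a (-0.044 r), Rpl36al (-0.64 r) and Rpl10a (-0.38 r, all 4 Ptprc) turned. Without cells of high Lyz1, chosen after seeing the data, KO over Het was 0.13 (Lgr5), -0.077 r (Mki67) and -1.14 (Muc2), Rescue over Het 0.053 (Lgr5), 0.055 (Mki67) and -0.14 r (Muc2), Rescue over KO -0.051 (Lgr5) and 0.99 (Muc2), and the TOP list in KO over Het -0.016 r (Mki67). At 5000 UMIs or more KO over Het was -0.36, Rescue over Het 0.12 and Rescue over KO 0.49 (all Ptprc). With doublets removed Rescue over Het was 0.30 (Lgr5) and Rescue over KO 1.01 (Muc2). The pseudocount, the UMI minimum per gene and summing with copies left all 15 medians within counting error.

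Over these settings the number of members at least 1.5-fold apart in KO over Het ranged for higher from 0 to 79 (Lgr5), 0 to 11 (Mki67), 0 to 61 (Fabp1) and 0 to 2 (Ptprc), and for lower from 0 to 2 (Lgr5), 1 to 4 (Mki67), 1 to 13 (Fabp1), 50 to 80 (Muc2) and 5 to 41 (Ptprc). In Rescue over Het it ranged for higher from 0 to 7 (Lgr5), 0 to 28 (Mki67), 0 to 3 (Fabp1), 0 to 7 (Muc2) and 0 to 4 (Ptprc), and for lower from 0 to 6 (Lgr5), 0 to 1 (Mki67), 0 to 27 (Fabp1), 0 to 24 (Muc2) and 0 to 2 (Ptprc). Counting error is small for the sums, but 8 of the medians changed sign in cells of 10000 to 40000 UMIs. The 17 KO cells in the Lgr5-positive gate and the 38 Rescue cells in the Muc2-high gate are few.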
